A study of Homo sapiens with 3 samples.

Results

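The ID and HES repressor loci are the surroundings of 6 genes for helix-loop-helix proteins, namely ID1, ID2, ID3, ID4, HES1 and HEY1. A p300/CBP peak was assigned to a gene when its centre lay within 100 kb of the transcription start site (TSS) of that gene's canonical transcript, in either direction. This gave 84 of the 82901 peaks in the control condition (siCTL) and 61 of the 39320 peaks in the Fra-1-depleted condition (siFra-1). Both conditions were made in MDA-MB-231, a human cell line of triple-negative basal B breast cancer that overexpresses Fra-1, the AP-1 subunit encoded by FOSL1. Either a negative control siRNA or 3 siRNAs against Fra-1, mixed, were transfected at 4.5 nM in total, and cells were fixed after 72 h for ChIP-seq with an antibody to the acetyltransferases p300 and CBP. An input sample was not analysed here. The series asked how the amount of Fra-1 affects p300/CBP on chromatin, and among these 6 genes it chose ID1 and HES1 for closer study as genes lowered by Fra-1.

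Each condition is 1 library made from pooled immunoprecipitations, and 1 list of peak positions without height or read number. There are therefore no replicates, no test between siCTL and siFra-1 was possible, and every difference below is one between these 2 libraries. All intervals are at 95% and take in the counting error of peaks alone. Sequencing depth is unknown, and peaks under the calling threshold are missing from a list, so a place without a peak is not a place without p300/CBP. The lists measure neither the amount of Fra-1 nor RNA, and the cell type could not be checked against marker expression. The narrowest peak in either list was 100 bp, and peaks of 250 bp and over are called wide.

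ID proteins carry a helix-loop-helix domain without the basic region that contacts DNA, and they hold E proteins such as TCF3 off their sites by pairing with them. Their genes are classical targets of BMP signalling, which acts through SMAD1 and SMAD5. HES and HEY proteins do bind DNA as repressors, HES proteins with TLE corepressors at their side, and HES1 and HEY1 are classical targets of the Notch receptors through the DNA-binding protein RBPJ. In breast cancer cells ID1 is known for its links to metastasis, and HES1 for its role downstream of Notch.

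Sequences of 200 bases centred on wide peaks are shown in 2 sets, from GRCh37 (hg19), plus strand, 5′ to 3′. The first set shows where the AP-1 motif, TGAGTCA or its reverse complement TGACTCA, stood in 3 peaks whose width differed between the lists. Capitals mark the AP-1 motif.
HES1, siCTL peak 46.4 kb upstream, chr3:193807402-193807601: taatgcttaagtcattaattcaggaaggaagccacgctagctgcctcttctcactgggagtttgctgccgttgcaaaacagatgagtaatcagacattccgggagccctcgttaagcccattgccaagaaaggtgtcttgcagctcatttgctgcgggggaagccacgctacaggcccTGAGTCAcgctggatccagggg
ID1, siFra-1 peak 32.3 kb upstream, in an HM13 intron, chr20:30160652-30160851: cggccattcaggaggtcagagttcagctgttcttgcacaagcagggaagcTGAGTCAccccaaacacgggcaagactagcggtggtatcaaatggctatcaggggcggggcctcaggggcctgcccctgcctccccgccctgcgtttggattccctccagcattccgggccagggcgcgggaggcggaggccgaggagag
ID1, siFra-1 peak 91.0 kb downstream, in a BCL2L1 intron, chr20:30284027-30284226: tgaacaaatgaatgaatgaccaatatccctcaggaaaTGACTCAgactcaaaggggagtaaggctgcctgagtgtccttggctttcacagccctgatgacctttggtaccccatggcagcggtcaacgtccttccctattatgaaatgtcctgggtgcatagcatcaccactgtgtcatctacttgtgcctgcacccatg

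The second set shows 6 of the 7 wide siFra-1 peaks that held, in these central bases, GGCGCC, the GC-rich palindrome bound by SMAD1 and SMAD5, because its share near these genes stood furthest, in percentage points, from that of the whole list among the 7 motifs searched. It was singled out for this after the values had been seen. The other one lies in an exon of ID3 and is described by its position only. Capitals mark GGCGCC and, in the ID1 peak 5.46 kb downstream, also the AP-1 motif TGAGTCA.
ID1, 0.97 kb upstream, chr20:30192027-30192226: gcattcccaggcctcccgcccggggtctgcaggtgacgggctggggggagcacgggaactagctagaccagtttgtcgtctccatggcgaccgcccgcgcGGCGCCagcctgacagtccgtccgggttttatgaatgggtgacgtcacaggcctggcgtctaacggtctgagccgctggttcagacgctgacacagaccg
ID1, 3.36 kb downstream, chr20:30196352-30196551: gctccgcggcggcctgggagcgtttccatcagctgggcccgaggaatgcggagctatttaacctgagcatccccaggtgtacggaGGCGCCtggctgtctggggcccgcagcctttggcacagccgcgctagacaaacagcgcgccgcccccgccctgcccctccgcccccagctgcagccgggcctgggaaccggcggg
ID1, 5.46 kb downstream, chr20:30198452-30198651: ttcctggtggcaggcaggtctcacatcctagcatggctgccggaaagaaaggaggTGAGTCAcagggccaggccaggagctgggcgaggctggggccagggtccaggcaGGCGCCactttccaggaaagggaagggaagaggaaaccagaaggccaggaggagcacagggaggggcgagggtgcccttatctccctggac
ID3, 2.96 kb upstream, chr1:23888852-23889051: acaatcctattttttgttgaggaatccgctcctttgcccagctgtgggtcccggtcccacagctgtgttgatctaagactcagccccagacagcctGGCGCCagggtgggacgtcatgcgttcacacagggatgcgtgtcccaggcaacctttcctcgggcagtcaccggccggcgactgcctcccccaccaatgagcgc
ID4, 32.6 kb upstream, chr6:19804852-19805051: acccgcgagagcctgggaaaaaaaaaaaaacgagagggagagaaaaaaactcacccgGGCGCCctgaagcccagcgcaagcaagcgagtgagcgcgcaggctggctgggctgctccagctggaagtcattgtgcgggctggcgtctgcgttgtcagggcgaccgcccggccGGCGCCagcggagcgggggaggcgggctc
HES1, 4.81 kb downstream, chr3:193858652-193858851: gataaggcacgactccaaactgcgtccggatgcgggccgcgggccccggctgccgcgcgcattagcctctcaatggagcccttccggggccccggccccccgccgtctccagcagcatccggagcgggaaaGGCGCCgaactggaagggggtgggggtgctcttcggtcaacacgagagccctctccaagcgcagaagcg

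Near the 6 genes together the siFra-1 list held fewer peaks but more wide ones. The number of peaks was 84 in siCTL and 61 in siFra-1, which is a ratio of 0.726 for siFra-1 over siCTL (interval by Clopper-Pearson 0.513 to 1.02), whereas the whole lists stood at 0.474. Wide peaks numbered 9 in siCTL against 15 in siFra-1, giving 1.67 (0.683 to 4.32), close to the 1.64 of the whole lists. The covered length was nearly equal, 12650 bp in siCTL and 12500 bp in siFra-1 (ratio 0.988), while over the whole lists it was 9.96 Mb and 6.29 Mb (ratio 0.632). ID1 carried most of these peaks. Without it there were 33 siCTL and 27 siFra-1 peaks (ratio 0.818, 0.473 to 1.40), 1 and 5 wide peaks, and 3800 and 4050 bp.

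The 6 genes did not share a single pattern. Fewer siFra-1 than siCTL peaks were found at 5 of the 6 genes, the exception being ID4, and at 86.0% of the 19241 protein-coding genes with any peak in this window. Of the 5 members with at least 5 siCTL peaks, ID1, ID3 and HEY1 had at least 1.5-fold fewer siFra-1 peaks, and so did 82.6% of the 12583 genes that passed this minimum. Neither count of members with fewer siFra-1 peaks thus stood above the share over all genes. For wide peaks the order was the opposite. All 4 members with a wide peak in either list, ID1, ID3, ID4 and HES1, had more of them in siFra-1. So did 49.5% of 6412 such genes. ID3 and ID4 had 0 wide siCTL peaks and entered only through siFra-1, so they could only count as having more. At ID1 (8 in siCTL, 10 in siFra-1) and HES1 (1 and 2) either direction was open. Within 5 kb of the TSS, ID3 and HES1 had more siFra-1 peaks and ID1 had fewer, and 23.7% of the 8194 genes with a peak there had more. The counts are small, and a difference of 1 peak was enough to enter them.

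**Figure D1:**
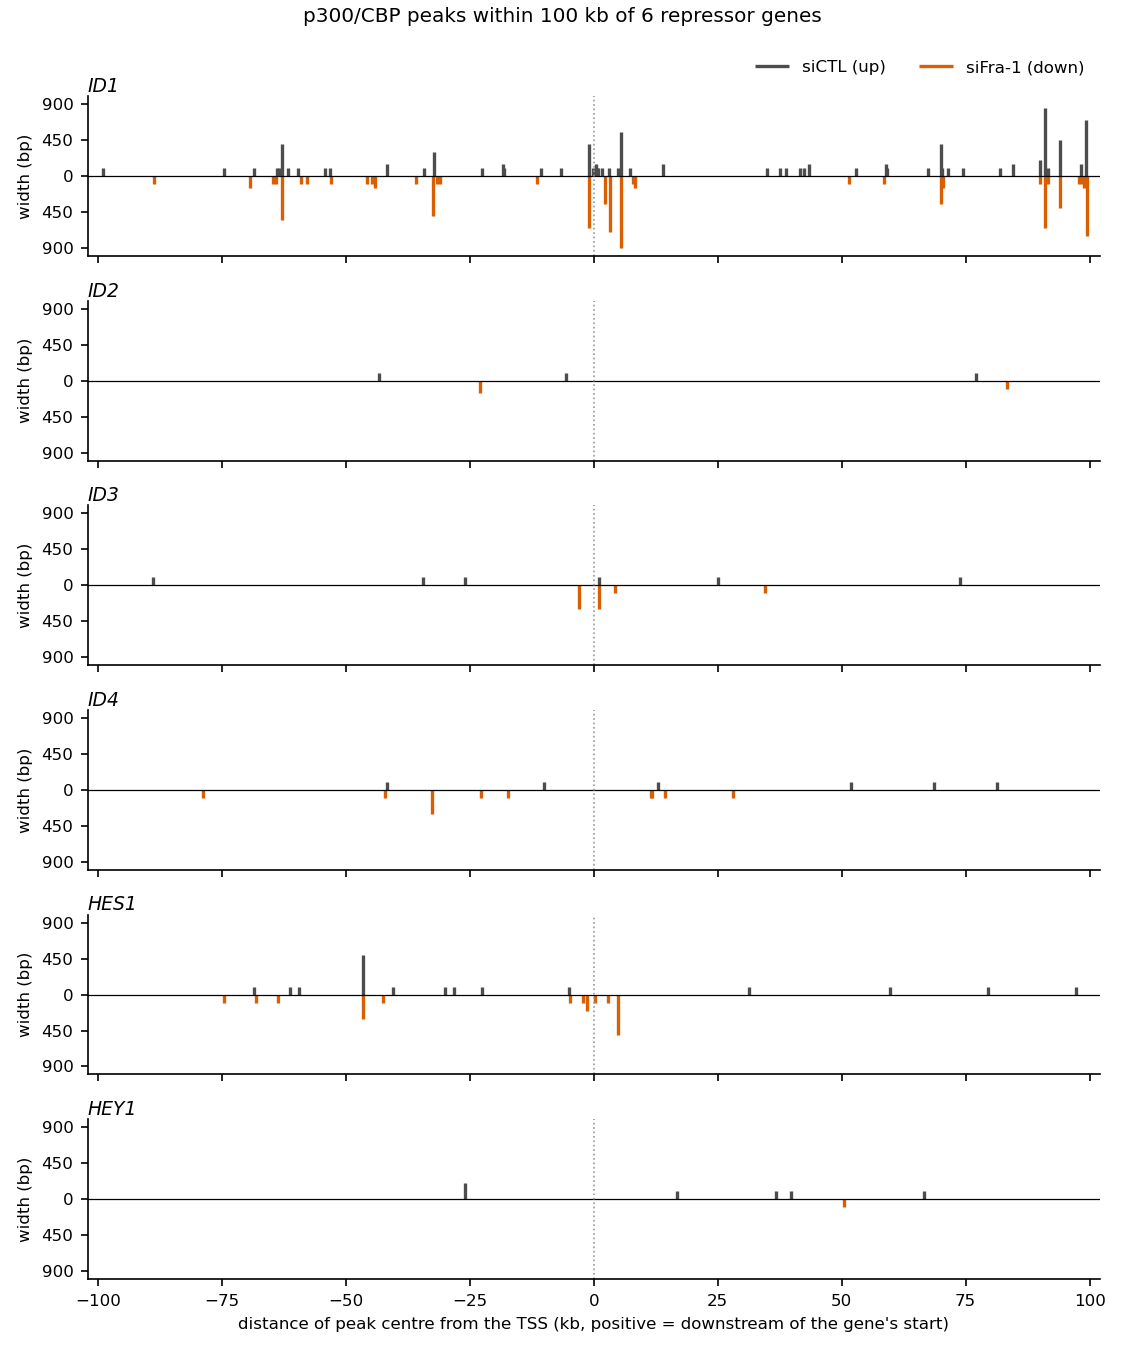
Peaks within 100 kb of the TSS of each gene. The x axis gives the distance of the peak centre from the TSS in kb and the y axis the peak width in bp, upwards for the siCTL library and downwards for the siFra-1 library. ID1 has 51 siCTL and 34 siFra-1 peaks, ID2 and HEY1 have no wide peak, and the HES1 siFra-1 peaks crowd around the TSS.

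ID1 (TSS at position 30193092 of chromosome 20, plus strand) had the densest surroundings of the 6. It held 51 siCTL peaks against 34 in siFra-1, giving a ratio of 0.667 (0.419 to 1.05), where the median protein-coding gene held 6 and 2. Of 20098 genes, 8 including ID1 had at least 51 siCTL peaks, and 2 of the other 7, COX4I2 and TPX2, lie on the same chromosome. The COX4I2 TSS lies inside the ID1 window, so ID1 and COX4I2 are in part counted by the same peaks. The window also holds the TSSs of HM13, MCTS2 and COX4I2 and reaches into the body of BCL2L1, which encodes the survival factor BCL-XL. ID1 was the nearest protein-coding TSS for only 16 of the 51 siCTL and 7 of the 34 siFra-1 peaks, so most of the window cannot be tied to ID1 by position. An assembly gap of over 1 Mb lies 0.774 Mb from the TSS.

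Close to ID1 itself the siFra-1 list had fewer but wider peaks. Within 10 kb of the TSS, a distance chosen after the values had been seen, there were 11 siCTL peaks of which 2 were wide, and 6 siFra-1 peaks of which 4 were wide. They covered 1900 bp in siCTL and 2850 bp in siFra-1. The wide peak upstream of the promoter, centred at 0.94 kb (siCTL) or 0.97 kb (siFra-1), was 400 bp wide in siCTL and 650 bp in siFra-1 (chr20:30191802-30192451). Upstream DNA of ID1 at about this place is the textbook BMP-responsive element of the gene. Downstream, between ID1 and the next gene, a siCTL peak of 100 bp at 3.06 kb lay within a siFra-1 peak of 700 bp (chr20:30196102-30196801), and the siCTL peak at 5.48 kb was 550 bp wide against 900 bp in siFra-1 (chr20:30198102-30199001). This last peak was the widest of all peaks near the 6 genes. A siFra-1 peak of 350 bp at 2.18 kb (chr20:30195102-30195451) had no siCTL counterpart.

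Narrow siCTL peaks without a siFra-1 overlap lay on and around the ID1 gene, which is the usual state of such peaks, since 3.79% of all 100 bp siCTL peaks were overlapped. They lay 0.24 kb upstream of the TSS, in an exon of an unnamed annotated gene, at 0.53 kb in the ID1 coding sequence (150 bp), and at 0.71 and 0.91 kb in ID1 exons outside the coding sequence. Those at 1.61 and 4.91 kb lay beyond the gene. All but the peak of 150 bp were 100 bp wide. Within 5 kb there were thus 8 siCTL and 3 siFra-1 peaks. A difference as large or larger in this direction was seen at 16 of the 8194 genes with a peak within 5 kb. Yet the covered length within 5 kb of ID1 was 1150 bp in siCTL and 1700 bp in siFra-1. Only 8 genes, ID1 included, had as much siFra-1 peak length within 5 kb.

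**Figure D2:**
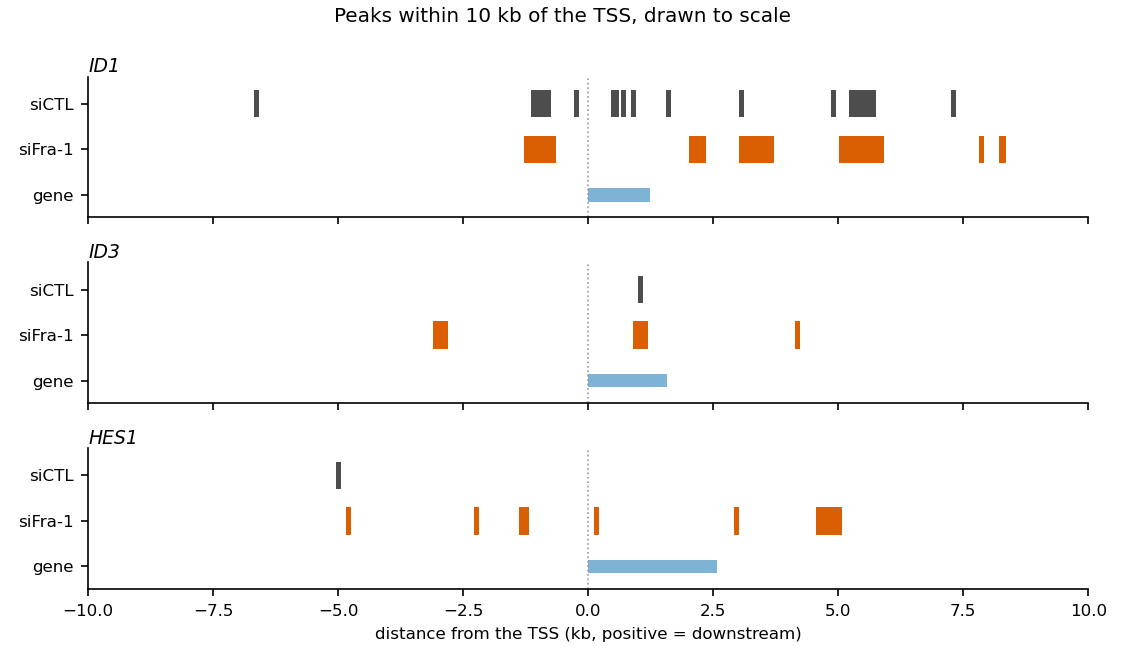
Peaks within 10 kb of the TSS of ID1, ID3 and HES1, drawn to scale along the x axis (distance from the TSS in kb). Dark bars are siCTL peaks, orange bars siFra-1 peaks and blue bars the gene, and the 2 lists can be seen to meet at 3 places near ID1, at 1 near ID3 and at none near HES1.

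Farther from ID1 the pairs of overlapping peaks split by position. In the part from 65 kb upstream to 10 kb downstream, all 5 pairs were wider in siFra-1, by a median of 250 bp, and covered 1750 bp in siCTL and 3300 bp in siFra-1. Besides the 3 pairs near ID1 these were 2 pairs in introns of HM13, which encodes a signal peptide peptidase. The peak 62.8 kb upstream was 400 bp wide in siCTL and 550 bp in siFra-1, and the peak 32.3 kb upstream, whose sequence with AP-1 is shown above, was 300 bp and 500 bp wide. From 65 to 100 kb downstream, in introns of BCL2L1, 2 of 7 pairs were wider in siFra-1, 1 was equal and 4 were narrower, with a median of -50 bp and a covered length of 2800 bp in siCTL and 2500 bp in siFra-1. The widest siCTL peak of all 6 loci was here, 90.9 kb downstream, with 850 bp in siCTL and 650 bp in siFra-1. Its neighbours at 94.1 kb (450 and 400 bp) and 99.4 kb (700 and 750 bp) differed by 50 bp, the step in which widths were recorded. The pairs at 3.06, 70.3 and 91.7 kb were 100 bp wide in siCTL, the narrowest width, and could not become narrower. Over all 7310 pairs of the series the siFra-1 peak was wider in 3866, equal in 1655 and narrower in 1789. For the 3053 of them with a wide siCTL peak these numbers were 1519, 365 and 1169. The split by position was drawn after the widths had been seen.

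ID3 (TSS at position 23885992 of chromosome 1, minus strand) had more wide peaks in siFra-1 although its total was smaller there. There were 6 siCTL peaks, all of 100 bp, and 4 siFra-1 peaks of 100, 100, 300 and 300 bp, covering 600 bp and 800 bp. In siCTL 1 peak lay within 5 kb, in an ID3 exon 1.04 kb downstream of the TSS, and it was also the only shared one, 100 bp wide in siCTL and 300 bp in siFra-1 (chr1:23884802-23885101). The other wide siFra-1 peak lay 2.96 kb upstream (chr1:23888802-23889101) and a narrow one 4.19 kb downstream, so that 3 siFra-1 peaks with 700 bp lay within 5 kb. A difference of 2 or more in favour of siFra-1 within 5 kb was seen at 273 of the 8194 genes with a peak there. The ID3 window also holds the TSSs of ASAP3 and E2F2, and 3 of the 6 siCTL and 3 of the 4 siFra-1 peaks had ID3 as the nearest coding TSS.

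ID4 (TSS at position 19837601 of chromosome 6, plus strand) was the only member with more siFra-1 than siCTL peaks, 9 against 6, a ratio of 1.5 with a wide interval (0.477 to 5.12). This held for the window of 100 kb, as within 250 kb ID4 had 13 peaks in siCTL against 11 in siFra-1, and within 50 kb HES1 had 7 against 8. None overlapped between the lists, where 9.56% of all siCTL and 19.1% of all siFra-1 peaks were overlapped. No peak lay within 10 kb of the TSS in either list. The nearest was 10.1 kb upstream in siCTL and 11.5 kb downstream in siFra-1. All 6 siCTL peaks and 8 of the 9 siFra-1 peaks were 100 bp wide. The other was 300 bp wide, 32.6 kb upstream, in an exon of the long non-coding RNA LNC-LBCS (chr6:19804802-19805101), and it is the one printed above with 2 copies of GGCGCC. No other protein-coding TSS lies in this window.

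ID2 (TSS at position 8822186 of chromosome 2, plus strand) had few peaks in either list. The 3 siCTL peaks were 100 bp wide and lay 43.3 kb upstream, 5.63 kb upstream and 77.2 kb downstream. The 2 siFra-1 peaks lay 22.96 kb upstream (150 bp) and 83.4 kb downstream (100 bp). None was shared, where 9.56% of all siCTL and 19.1% of all siFra-1 peaks were. Of protein-coding genes, 79.6% had as many siCTL peaks or more.

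HES1 (TSS at position 193853937 of chromosome 3, plus strand) had nearly as many peaks in siFra-1 as in siCTL, 11 and 13 (ratio 0.846, 0.343 to 2.05), with 1 pair shared. Low sharing was usual, as 19.1% of all siFra-1 and 9.56% of all siCTL peaks were overlapped. Within 5 kb of the TSS there was 1 siCTL peak of 100 bp, 4.99 kb upstream. In siFra-1 there were 6, at 4.79 kb upstream (100 bp), 2.24 kb upstream (100 bp), 1.29 kb upstream (200 bp), 0.16 kb downstream in the first exon (100 bp), 2.96 kb downstream (100 bp) and 4.81 kb downstream (500 bp, chr3:193858502-193859001). They covered 1100 bp against 100 bp. A difference of at least 5 peaks in favour of siFra-1 within 5 kb was found at 4 of the 8194 genes with a peak there. They were HES1, SPRY4, ANXA2 and KRT7. None of the 6 siFra-1 peaks overlapped a siCTL peak, as was usual for the 4 of 100 bp (6.56% of such peaks in the whole siFra-1 list were overlapped). It was less usual for the peak of 500 bp, since 68.2% of all wide siFra-1 peaks were overlapped. Of siFra-1 peaks of 150 or 200 bp, 28.1% were. The siCTL peak at 4.99 kb lay beside the siFra-1 peak at 4.79 kb without touching it.

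The only pair of overlapping peaks near HES1 was narrower in siFra-1. The siCTL peak 46.4 kb upstream was 500 bp wide (chr3:193807252-193807751), the only wide siCTL peak of the locus, and the siFra-1 peak that shared its left edge was 300 bp wide (chr3:193807252-193807551). The AP-1 motif of the siCTL peak, at chr3:193807580-193807586, began beyond the end of the siFra-1 peak, with 28 bases between them. It was the only AP-1 motif in a wide siCTL peak of the 6 loci that was not also inside a siFra-1 peak. The other 4, all near ID1, lay in both lists' peaks. All HES1 peaks had HES1 as the nearest coding TSS.

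HEY1 (TSS at position 80680002 of chromosome 8, minus strand) had 5 siCTL peaks and 1 siFra-1 peak, giving a ratio of 0.2 (0.00423 to 1.79). The siCTL peaks lay 26.0 kb upstream (200 bp, with an AP-1 motif) and 16.9, 36.7, 39.8 and 66.6 kb downstream (100 bp each). The siFra-1 peak lay 50.6 kb downstream and was 100 bp wide. No peak was shared, where 9.56% of all siCTL and 19.1% of all siFra-1 peaks were. None was wide, and 62.6% of protein-coding genes had as many siCTL peaks or more.

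Overlap between the lists went with width at these loci. Of the siCTL peaks 14 of 84 were overlapped by at least 1 bp, or 16.7% (Wilson interval 10.2% to 26.1%), against 9.56% of the whole list. Of the siFra-1 peaks 14 of 61 were overlapped, or 22.95% (14.2% to 34.9%), against 19.1%. All 9 wide siCTL peaks were shared (85.0% in the whole list) and 11 of 15 wide siFra-1 peaks were (68.2%). Of the 100 bp peaks, 4 of 65 in siCTL and 2 of 39 in siFra-1 were shared, where the whole lists had 3.79% and 6.56%. There were 4 wide siFra-1 peaks without a siCTL peak. They lay 2.18 kb downstream of ID1, 2.96 kb upstream of ID3, 32.6 kb upstream of ID4 and 4.81 kb downstream of HES1. These are the 4 loci that had any wide peak, but ID4 is among them only through the peak named here. ID1 accounted for 12 of the 14 pairs, and without it 2 of 33 siCTL peaks and 2 of 27 in siFra-1 were shared.

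Over the 14 pairs the siFra-1 peak was wider in 8, equal in 1 and narrower in 5. Over the 7310 pairs of the series these numbers were 3866, 1655 and 1789. The median difference was 50 bp in both. By a criterion of 1.5-fold, 6 of 14 were wider, against 37.5% of all pairs, and 2 were narrower, against 16.0%. Among the 6, those 3.06 and 70.3 kb downstream of ID1 and 1.04 kb downstream of ID3 were 100 bp wide in siCTL. From this narrowest width they could not become narrower. The series had 3053 pairs with a wide siCTL peak, and their median difference was 0 bp. By the same criterion 617 of them were wider and 656 narrower. The largest difference was in the pair 3.06 kb downstream of ID1, which went from 100 to 700 bp.

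**Figure D3:**
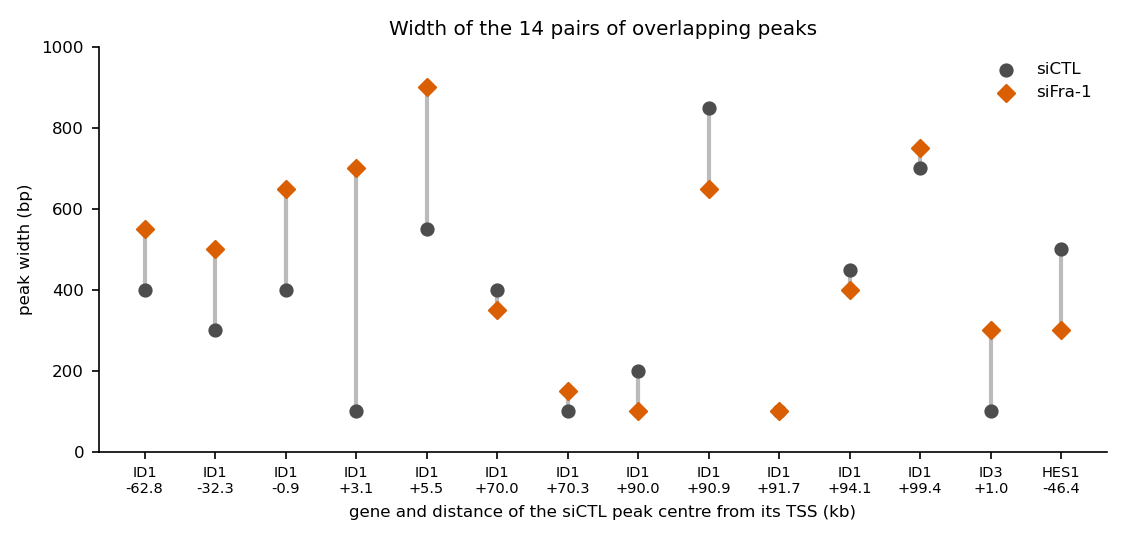
Widths of the 14 pairs of overlapping peaks. The x axis names the gene and the distance of the siCTL peak from its TSS in kb, the y axis gives the width in bp, circles are siCTL peaks and diamonds siFra-1 peaks. The pairs from 62.8 kb upstream to 5.48 kb downstream of ID1 are all wider in siFra-1, and the HES1 pair is narrower.

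To see what else the peaks had in common, 7 motifs were sought on both strands in the 200 bp centred on each peak. They were AP-1 (TGAGTCA or TGACTCA), CREB (TGACGTCA), TEAD (GGAATG), RUNX (TGTGGT), RBPJ (TGGGAA), SMAD1/5 (GGCGCC) and the E-box that HEY proteins can bind (CACGTG). TEAD and RBPJ matches can share bases. A match describes the letters and not binding.

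AP-1 letters were about as frequent as in the whole lists. They were present in 8 of 84 siCTL peaks, or 9.52% (Wilson interval 4.91% to 17.7%), against 6.15% of the whole list, and in 4 of 61 siFra-1 peaks, or 6.56% (2.58% to 15.7%), against 9.08%. Among wide peaks they were present in 5 of 9 in siCTL (31.9% of the list) and in 4 of 15 in siFra-1 (22.9%). No interval here left out the value of the list.

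GGCGCC was present in the central 200 bp of 7 of the 15 wide siFra-1 peaks (8 over their whole length), or 46.7% (24.8% to 69.9%), against 2.24% of the 5989 wide peaks of the list. These 7 were spread over all 4 loci with wide peaks, 3 near ID1, both near ID3, and 1 each near ID4 and HES1. ID3 and ID4 count among these loci only through wide siFra-1 peaks, and the only one near ID4 is among the 7. The spread is thus in part set by the choice of peaks. Among wide siCTL peaks GGCGCC was found in 2 of 9, or 22.2% (6.32% to 54.7%), against 2.44% of the list. In all siFra-1 peaks it was found in 8 of 61, or 13.1% against 2.04%, and in all siCTL peaks in 6 of 84, or 7.14% against 1.89%. The motif consists of G and C, and the base composition moved with it. The median GC content of the wide siFra-1 windows was 61% near the 6 genes and 47% in the list. Among wide siFra-1 peaks with at least 60% GC, a limit chosen after the values had been seen, 7 of 8 near these genes held it and 10.4% of 647 in the list. For wide siCTL peaks of this GC content it was 2 of 3 and 11.7% of 472. Peaks of the same locus share their surroundings and are not independent, and beyond this split the part of base composition was not tested.

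Other motifs were spread less evenly. RBPJ letters were found in 20 of 61 siFra-1 peaks, or 32.8% (22.3% to 45.3%), against 17.6% of the list, but 15 of these 20 lay near ID1, and in siCTL they were found in 10 of 84 (11.9%, list 17.1%). Near HES1, the Notch target, 2 of the 11 siFra-1 peaks held them. RUNX letters were in the central 200 bp of 0 of the 9 wide siCTL and 0 of the 15 wide siFra-1 peaks, with upper Wilson limits of 29.9% and 20.4%, where the lists had 24.2% and 26.7%. Over their whole length 1 of the 9 and 3 of the 15 held them. The CREB site TGACGTCA was found, in the central 200 bp, in the peak upstream of ID1 of both lists, 33 bases after the GGCGCC in the sequence shown above. Outside the central 200 bp the wide siFra-1 peak near ID4 held it as well. The E-box was in the central 200 bp of 1 of 84 siCTL and 0 of 61 siFra-1 peaks, and in the siFra-1 peak 3.36 kb downstream of ID1 it lay outside that stretch.

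**Figure D4:**
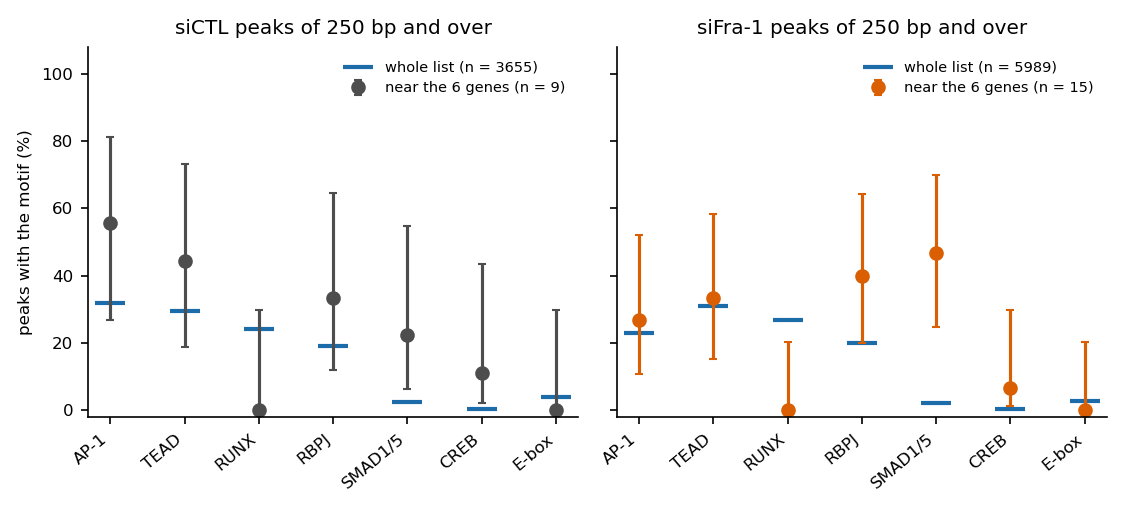
Share of wide peaks with each motif in their central 200 bp, in percent on the y axis, for siCTL on the left and siFra-1 on the right. Points are the peaks near the 6 genes with Wilson intervals and blue bars are the whole list. The SMAD1/5 letters are at 46.7% against 2.24% in siFra-1 and at 22.2% against 2.44% in siCTL.

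The partners and upstream regulators of these repressors were counted in the same way. Over 45 such genes there were 349 siCTL and 184 siFra-1 peaks, with fewer in siFra-1 at 35, as many at 7 and more at 3, and 20 and 37 wide peaks, with fewer at 4, as many at 29 and more at 12. Of these genes 42 had any peak and 22 any wide peak, so 35 of 42 and 12 of 22 stand beside 86.0% and 49.5% of all genes. Among the 16 BMP ligands, receptors, SMADs and inhibitors, 12 had fewer siFra-1 peaks, 2 as many and 2 more. Their wide peaks numbered 5 and 14, with more at 3 and fewer at 0 of the 6 genes that had any, near the 49.5% of all genes. BMP4, a ligand, had 12 siCTL and 20 siFra-1 peaks, of which 1 and 4 were wide. SMAD6, an inhibitor of the pathway, had 12 in each list, of which 0 and 4 were wide.

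Among the 14 Notch ligands, receptors and cofactors, 12 had fewer siFra-1 peaks, 2 had as many and 0 had more, close to the 86.0% of all genes. Their wide peaks numbered 11 and 18, with more at 6 of the 10 genes that had any, against 49.5% of all such genes. JAG1, a ligand, had 15 and 12 peaks, of which 4 and 7 were wide. The 8 other HES and HEY genes had 43 and 15 peaks, with fewer in siFra-1 at 6 and as many at 2. Of these 8 genes 7 had any peak, so 6 of 7 stand beside the 86.0% of all genes. The 3 E protein genes had 23 and 6 peaks, of which TCF3 had 18 and 4. The 4 TLE corepressor genes had 21 and 17 peaks, and TLE3 was the only one of them with more in siFra-1, 10 against 8.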

How the data were processed

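p300/CBP ChIP-seq was carried out by the authors in MDA-MB-231 after transfection of siCTL or siFra-1, and the immunoprecipitations of a condition were pooled before library preparation. Reads were placed on hg19, with BWA-backtrack per the study's methods and Bowtie2 per the submitters' processing notes. The authors scaled the signal, subtracted the background in bins of 50 bp and called runs above a threshold of 25, with a gap of at most 50 bp and a run of at least 50 bp. Number and width of peaks therefore depend on scaling and enrichment as well as on occupancy, which cannot be told apart. The deposited lists hold chromosome, start and end only, with no count and no score. Starts were raised by 1 for printing, and would be 1 too high had the authors counted from 1.

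TSSs were those of Ensembl canonical transcripts in GENCODE release 44 lifted to GRCh37, for 20098 protein-coding genes, of which 279 had the gene's 5′ end instead. An overlap of 1 bp or more made a peak shared. A siCTL and a siFra-1 peak were paired when each was the other's largest overlap. Location was taken at the peak centre. Scripts ran in Python 3.11.15 with numpy 2.4.6, scipy 1.17.1, matplotlib 3.10.9 and pysam 0.24.0, and overlap, pairing and motif search were tested on simulated data. Named were all 6 genes, their wide peaks, their pairs and all peaks within 5 kb. The genes, lists and motifs were chosen with earlier results of these data known. Alternatives were minimum widths, windows of 50 and 250 kb, nearest TSS, merging within 500 bp, other definitions of overlap and motif windows, and leaving out peaks within 1 Mb of large assembly gaps. Another TSS choice, leaving out ID1 and the covered lengths were added after the data were examined.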

Additional observations from a re-analysis of the deposited data

How the results depend on the processing

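For peak numbers and sharing the minimum width moved the values most. With peaks of at least 150 bp the siFra-1 to siCTL ratio of peak numbers turned from 0.726 to 1.16, and at 250 bp to 1.67, with covered lengths at ratios of 1.40 and 1.65. The difference, siFra-1 minus siCTL, then changed sign at ID2 (1), ID3 (2) and HES1 (2) at 150 bp and at ID1 (2), ID3 (2) and HES1 (1) at 250 bp. It also did so at HES1 in the window of 50 kb (1) and at ID4 in that of 250 kb (-2). The shared siCTL peaks were 52.6% at 150 bp, 100% at 250 bp and 6.06% without ID1, and the shared siFra-1 peaks were 54.5%, 73.3% and 7.41%. The wide peak ratio was 5 without ID1, and 5 without peaks near large assembly gaps, which leaves out all ID1 peaks. The median width difference of pairs was 225 bp in the window of 50 kb. GGCGCC was in 87.5% of wide siFra-1 peaks of at least 60% GC and in 80% of those without ID1. The causes were not tested. By construction, a minimum width left out the 100 bp peaks, 65 in siCTL and 39 in siFra-1. The window of 50 kb and leaving out ID1 also counted fewer peaks, and the window of 250 kb more, 173 in siCTL and 97 in siFra-1. Of 53 alternative values of these summaries the other 38 stayed close, within the interval of the reported value (for covered length, that of the peak number, scaled) or, for pair widths, within 50 bp. Of 53 alternative differences for the 6 genes, 27 kept their direction within 1.5-fold, 18 moved further and the 8 above changed sign. No paired analysis was possible because each condition is 1 library. Without replicates no replicate could be left out, and read depth, being unknown, sets a limit that could not be stated.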
